A study of Mus musculus with 40 samples.

Results

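Microglia are the resident macrophages of the brain, and their RNA is a small share of what bulk brain tissue yields. Here the transcripts of 36 microglia genes, of 47643 genes in the count tables, were followed in the hippocampus and frontal cortex of mice that received human fecal microbiota. The genes were taken by symbol as known markers or effectors of microglia, and all 36 were found in the tables. They were grouped by role into 6 sensing receptors, 4 survival and growth factor receptors, 4 genes of TREM2-DAP12 and Fc receptor signalling, 3 complement C1q subunits, 6 phagocytosis and lysosome genes, 3 transcription factors, 6 adhesion and general leukocyte surface genes, and 4 other homeostatic microglial genes.

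Recipients were germ-free, wild-type Swiss Webster mice, described as female and 6 to 8 weeks old and fed a control chow in every group. They were gavaged with stool from 1 of 10 donors with refractory epilepsy, collected either before the classical ketogenic diet (pre-KD) or during it (post-KD), so that 10 donors and 2 time points made 20 cohorts. Tissue was taken on day 4 after colonization, and each library pooled the tissue of 6 mice of a cohort. There were 10 libraries in each of 4 groups, which were hippocampus pre-KD, hippocampus post-KD, frontal cortex pre-KD and frontal cortex post-KD. The mice themselves never ate the ketogenic diet, and no group without stool transfer was analysed here.

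In the healthy brain microglia survey their surroundings through purine and chemokine receptors, depend on CSF1R signalling for survival, and clear debris and synapses. The sensing state is marked by P2RY12, CX3CR1 and TMEM119, and the cells take their identity from PU.1, IRF8 and SALL1 together with TGF-β signalling. TREM2 and its adaptor DAP12 (encoded by *Tyrobp*) drive the phagocytic response to lipids and damage, while C1q, made in the brain mainly by microglia, tags material for removal.

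The libraries held 1140756 to 2095352 counts (median 1661561.5), which is shallow for genes this rare. Only 5 members had a count in every library (*Cx3cr1*, *Ctss*, *Csf1r*, *Mertk* and *Lgmn*), 11 averaged at least 20 counts per library, and 13 were at 0 in 10 or more of 40 libraries. A count of 0 allows up to 3 counts, or 1.43 to 2.63 CPM (counts per 1000000 counts of the library) depending on the library, for counting error only. The 8 libraries of donors 9 and 10 held 139 to 276 counts of 4 Y-linked genes against 0 to 27 in the other 32, although the recipients are described as female. Results that rest on those donors are therefore given with and without them. Of 7 hippocampal neuron genes, 5 were higher in the libraries labelled hippocampus at an adjusted p under 0.05, which 2.85% of all genes passed. Of 5 striatal genes tested, 5 were higher in those labelled frontal cortex, where 6 striatal genes summed to a mean of 650 and 712 CPM (pre-KD and post-KD) against 132 and 87.1 CPM in hippocampus. Genes of the choroid plexus summed to 1570 and 1690 CPM in hippocampus against 139 and 162 CPM in frontal cortex. The part of these neighbouring tissues in any regional difference below was not tested.

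PU.1, the product of the member gene *Spi1*, is the transcription factor that defines the macrophage lineage and binds a purine-rich core, GAGGAA. RefSeq promoter windows (assembly GRCm38.p6) were found for 28 members, and the 250 bases before the annotated start were searched on both strands. The core was present in 16 of 28 members (57.1%) and in 25.9% of 27025 genes. A longer form, GAGGAAGT, which contains the core, occurred in 1 of 28 members (*C1qc*) and in 2.79% of genes. The composite of GGAA and GAAA with 2 bases between them, bound by PU.1 together with IRF8, was found in 0 of 28 members and in 2.68% of genes. A match to these letters is a description of the sequence and not evidence of binding. The windows below were picked for the core. They are those of members described by library whose 250 bases hold it and overlap no annotated exon, and they show where it lies, in capitals. The windows of *Laptm5* and *C1qc* also hold it but overlap an exon, and those of *Cx3cr1*, *Mertk* and *Irf8* do not hold it.
Ctss: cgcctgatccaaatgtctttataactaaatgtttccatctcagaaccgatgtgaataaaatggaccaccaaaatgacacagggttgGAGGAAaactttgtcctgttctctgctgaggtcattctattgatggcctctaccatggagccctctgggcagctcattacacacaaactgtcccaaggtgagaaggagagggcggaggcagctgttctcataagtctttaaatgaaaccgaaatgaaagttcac
C1qb: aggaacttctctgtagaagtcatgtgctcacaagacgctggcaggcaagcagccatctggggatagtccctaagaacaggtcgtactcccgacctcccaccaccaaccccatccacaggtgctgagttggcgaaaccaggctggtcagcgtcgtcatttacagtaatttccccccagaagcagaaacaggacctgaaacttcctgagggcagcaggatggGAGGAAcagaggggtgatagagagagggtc
Trem2: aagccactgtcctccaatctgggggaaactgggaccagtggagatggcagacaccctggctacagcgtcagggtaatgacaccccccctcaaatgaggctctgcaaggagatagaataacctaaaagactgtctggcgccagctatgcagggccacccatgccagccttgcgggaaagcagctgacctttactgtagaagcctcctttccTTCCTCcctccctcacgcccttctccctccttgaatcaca

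The *Ctss* window is chr3:95526536-95526785 on the plus strand, with the core beginning 164 bases before the start. The *C1qb* window is chr4:136886201-136886450 on the minus strand, with the core beginning 30 bases before the start. The *Trem2* window is chr17:48346151-48346400 on the plus strand, where the core lies on the opposite strand and reads TTCCTC, 40 bases before the start.

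In CPM the most abundant members were *Cx3cr1*, *Ctss*, *Csf1r* and *Mertk*, with means over all 40 libraries of 53.2 ± 23.8, 51.5 ± 20.6, 50.2 ± 18.8 and 49.4 ± 20.9 CPM (SD, n = 40). These means lie within 1 SD of each other. The next were *C1qa* at 26.6 ± 17.7 CPM and *Laptm5* at 19.5 ± 13.2 CPM. Set per kilobase of annotated exon, which is the scale on which levels of different genes can be compared if reads cover whole transcripts, the order was *Ctss* (38 CPM per kb), *C1qa* (25.6 CPM per kb), *C1qb* (15.9 CPM per kb), *Tyrobp* (15.8 CPM per kb), *Fcer1g* (12.5 CPM per kb) and *Cx3cr1* (11.8 CPM per kb). The sources used here name both a whole-transcript and a 3′-end library kit, so the per-kilobase order depends on which was used.

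Among the sensing receptors, *Cx3cr1*, the fractalkine receptor that holds microglia in contact with neurons, ranged widely between libraries. In the hippocampus its lowest, median and highest levels were 4.34, 43 and 85.8 CPM in pre-KD libraries and 0.819, 69.4 and 103 CPM in post-KD libraries. In the frontal cortex they were 31.4, 52.3 and 86.5 CPM in pre-KD and 22.5, 61.7 and 79.9 CPM in post-KD libraries. The 4 groups overlapped, and the hippocampal libraries reached both lower and higher than the cortical ones. The ADP receptors *P2ry12* and *P2ry13* averaged 12.3 ± 11.5 and 16.9 ± 12.2 CPM over the 40 libraries, and each was at 0 in 3 of them. *Siglech*, *Gpr34* (a lysophosphatidylserine receptor) and *Selplg* (the selectin ligand PSGL-1) averaged between 5.82 and 9.65 CPM. *Gpr34* was at 0 in 16 libraries. The annotated span of *Cx3cr1* overlaps *Gorasp1*, *Csrnp1* and *Xirp1* on the same strand and other genes on the opposite one. The span of *P2ry12* and *P2ry13* lies within *Med12l*, and *Gpr34* within *Cask*, on the other strand, and whether counting used strand is not given in the sources used here.

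*Csf1r*, the receptor for the survival factors CSF1 and IL-34, was among the steadiest members. Its lowest, median and highest levels were 11.6, 50.9 and 98.1 CPM in hippocampus pre-KD and 4.99, 46.9 and 82.9 CPM in hippocampus post-KD. They were 34.9, 54.5 and 80.5 CPM in frontal cortex pre-KD and 25.2, 50.1 and 72.5 CPM in frontal cortex post-KD. All 4 groups overlapped, and the frontal cortex groups lay within the wider range of the hippocampal pre-KD group. *Tgfbr1*, a receptor subunit for TGF-β, averaged 9.99 ± 10.1 CPM, and *Itgb5*, an integrin subunit, 7.57 ± 7.22 CPM (SD, n = 40). Both are also made by other brain cells. *Csf3r*, the G-CSF receptor, was at 0 in 31 of 40 libraries.

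*Trem2*, the lipid-sensing receptor, was at or near the detection limit in many libraries. In hippocampus pre-KD libraries its lowest, median and highest levels were 0, 0 and 18.8 CPM, with 6 of 10 libraries at 0, and in hippocampus post-KD libraries they were 0, 7.28 and 19.5 CPM, with 2 at 0. In the frontal cortex they were 0, 3.97 and 12.1 CPM in pre-KD and 0, 3.94 and 31.2 CPM in post-KD libraries. The groups overlapped, and 1 frontal cortex post-KD library stood apart above the rest. Its adaptor *Tyrobp* had lowest, median and highest levels of 0, 9.4 and 30.1 CPM (hippocampus pre-KD), 0, 6.69 and 31.1 CPM (hippocampus post-KD), 0, 11.3 and 21.5 CPM (frontal cortex pre-KD) and 1, 10.6 and 37.4 CPM (frontal cortex post-KD), again with full overlap. *Fcer1g*, the shared Fc receptor gamma chain, averaged 10.9 ± 10.9 CPM, and the IgG receptor *Fcgr3* 4.72 ± 4.73 CPM (SD, n = 40).

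The C1q genes encode the A, B and C chains of one complex and lie beside one another on chromosome 4 (GENCODE M21, GRCm38), at 136895917 to 136898803 for *C1qa*, 136889804 to 136893065 for *C1qc* and 136880129 to 136886187 for *C1qb*. *C1qa* had lowest, median and highest levels of 0, 17.8 and 54 CPM in hippocampus pre-KD, 0, 14.9 and 58.1 CPM in hippocampus post-KD, 8.49, 39.6 and 51.5 CPM in frontal cortex pre-KD and 9.69, 24.8 and 54.9 CPM in frontal cortex post-KD. The lowest cortical libraries lay above the lowest hippocampal ones, while the highest were alike. *C1qb* had 0, 15.9 and 30.4 CPM in hippocampus pre-KD, 0.573, 19.2 and 58.9 CPM in hippocampus post-KD, 7.79, 20.4 and 52.1 CPM in frontal cortex pre-KD and 5.53, 11 and 16.5 CPM in frontal cortex post-KD. The frontal cortex post-KD libraries formed the narrowest and lowest of its groups. *C1qc* had 2.55, 11.4 and 31.6 CPM in hippocampus pre-KD, 0, 13 and 22.3 CPM in hippocampus post-KD, 0, 11.5 and 21.9 CPM in frontal cortex pre-KD and 0, 13.6 and 43.2 CPM in frontal cortex post-KD.

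The lysosomal and phagocytic genes gave the largest share of the counts. *Ctss*, the lysosomal protease cathepsin S, had lowest, median and highest levels of 17.7, 58.2 and 97.2 CPM in hippocampus pre-KD and 17.9, 45.3 and 94.8 CPM in hippocampus post-KD. In the frontal cortex they were 32.8, 55.2 and 71.6 CPM pre-KD and 18.3, 56.5 and 91.6 CPM post-KD. In hippocampus the 2 groups covered nearly the same range, while in frontal cortex the post-KD libraries reached both lower and higher than the pre-KD ones. *Mertk*, a receptor for the engulfment of dying cells that astrocytes also make, had 29.3, 50.7 and 86.6 CPM in hippocampus pre-KD and 0.819, 44.3 and 78.7 CPM in hippocampus post-KD. In the frontal cortex it had 27.2, 64.3 and 75.4 CPM pre-KD and 11.3, 42 and 68.8 CPM post-KD. The post-KD groups of *Mertk* reached lower than the pre-KD groups but overlapped them. *Laptm5*, a lysosomal membrane protein of blood-lineage cells, had 6.48, 20.3 and 68 CPM in hippocampus pre-KD, 0, 12.8 and 31 CPM in hippocampus post-KD, 10.8, 17.7 and 37.9 CPM in frontal cortex pre-KD and 0, 14.2 and 43.9 CPM in frontal cortex post-KD. The protease *Lgmn* averaged 15.6 ± 12.9 CPM over the 40 libraries, the pore-forming *Mpeg1* 3.98 ± 9.09 CPM and the endolysosomal marker *Cd68* 2.57 ± 3.95 CPM (SD). *Mpeg1* and *Cd68* were at 0 in 16 and 17 libraries.

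Of the transcription factors, *Irf8*, which macrophages need to develop and to answer interferon, had lowest, median and highest levels of 0, 3.96 and 36.9 CPM in hippocampus pre-KD and 0, 1 and 2.98 CPM in hippocampus post-KD. In the frontal cortex it had 0.561, 6.47 and 26.4 CPM pre-KD and 0, 7.09 and 25.3 CPM post-KD. The hippocampus post-KD libraries were uniformly low, but 4 of the 10 hippocampus pre-KD libraries were at 0. *Irf8* shares its strand and part of its span with another annotated gene, *Gm20388*, so its counts may be incomplete. *Sall1*, which holds microglial identity, averaged 8.5 ± 8.43 CPM and *Spi1* 4.64 ± 5.8 CPM (SD, n = 40). *Sall1* is also expressed outside microglia.

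The leukocyte surface genes were mostly rare. *Aif1* (the antigen IBA1) was the most abundant, at 16 ± 14.1 CPM over the 40 libraries. The integrin *Itgam* (CD11b) averaged 6.29 ± 9.09 CPM, *Cd53* 3.55 ± 6.49 CPM and *Ptprc* (CD45) 3.15 ± 3.84 CPM (SD). *Itgam* overlaps *Gm49368* on the same strand. *Ly86* and the endotoxin co-receptor *Cd14* were at 0 in 25 and 29 of the 40 libraries. Among the remaining homeostatic genes, *Tmem119* averaged 11.6 ± 9.91 CPM and was at 0 in 1 library, while the transporter *Slco2b1*, *Fcrls* and *Olfml3* averaged 9.76, 4.01 and 3.85 CPM.

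**Figure D1:**
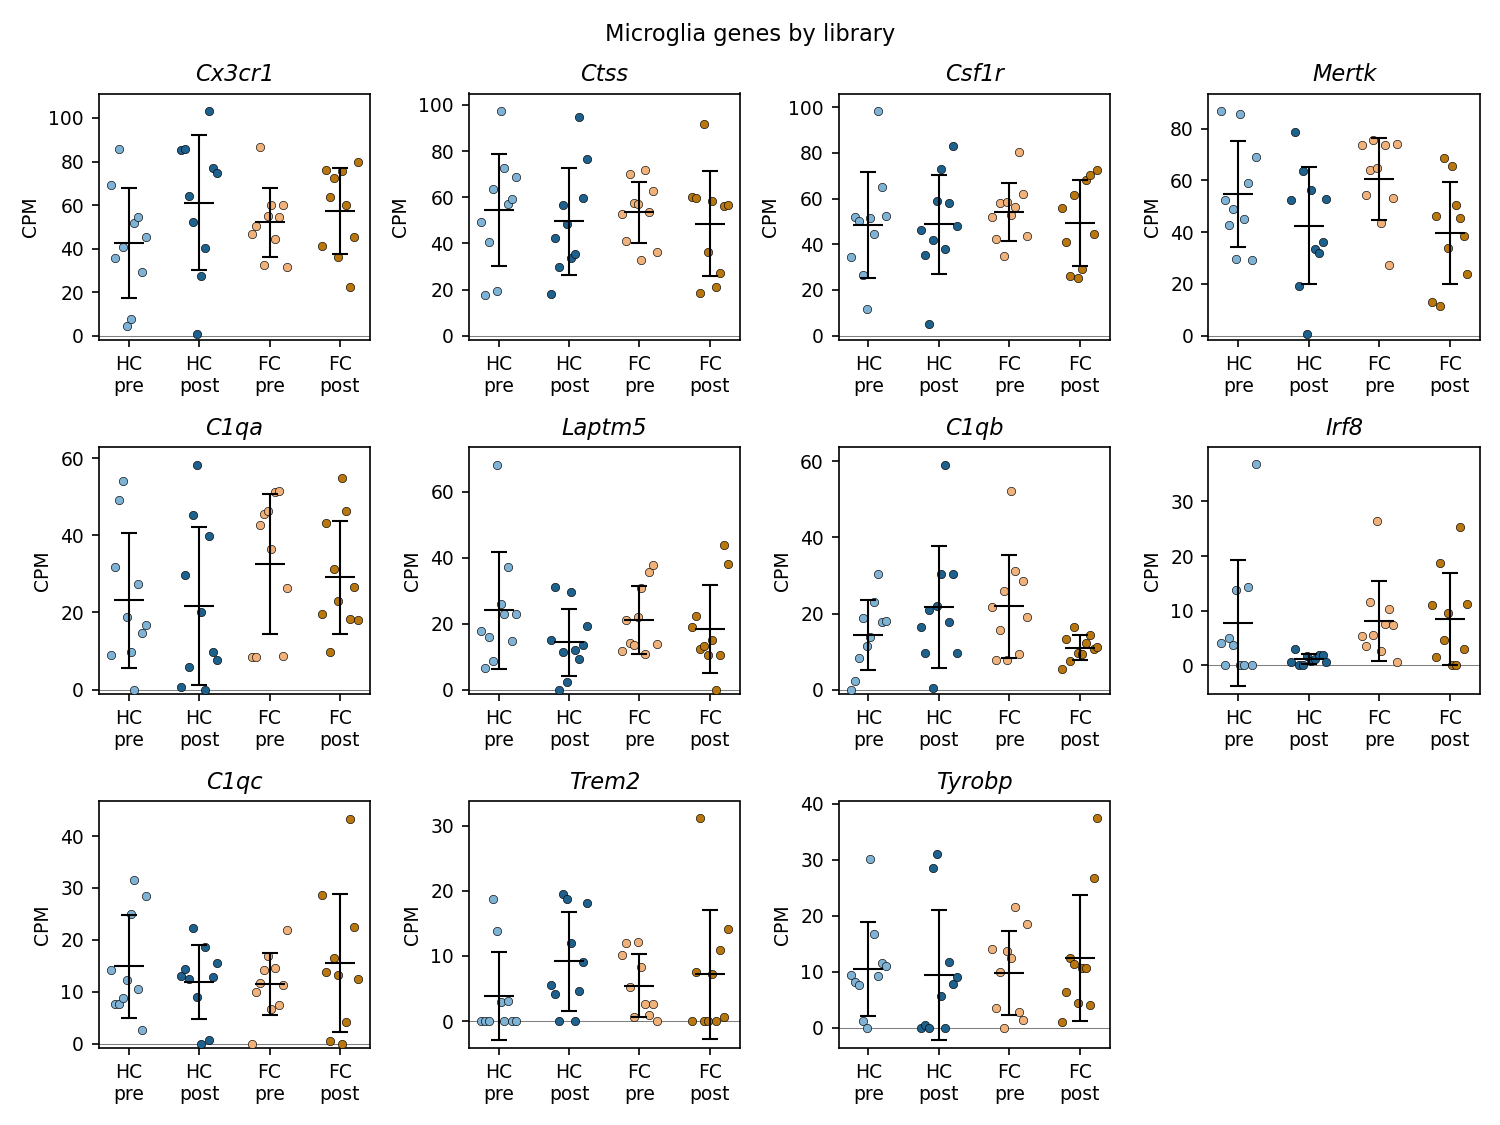
Level of each of the 11 members described by library, in CPM (y axis), in the 4 groups of 10 libraries (x axis, with HC for hippocampus and FC for frontal cortex), with each point 1 library, and the bar and line the mean and SD. The 4 groups of every gene overlap, and the hippocampus post-KD libraries of *Irf8* all lie at or under 2.98 CPM.

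The summed level of the members varied less between libraries than single members did, as a sum of independently varying genes also would (values below). The 36 genes summed to 492 ± 60.9 CPM (SD, n = 10; lowest 422, median 470, highest 587) in hippocampus pre-KD and 472 ± 77.6 CPM (359, 463 and 587) in hippocampus post-KD. They summed to 501 ± 42 CPM (420, 502 and 551) in frontal cortex pre-KD and 477 ± 65.4 CPM (367, 478 and 573) in frontal cortex post-KD. The means of the 4 groups differed by less than 1 SD. The post-KD sum was the higher one for 5 of 10 donors in hippocampus and for 4 of 10 in frontal cortex, and the hippocampal sum was the higher one in 9 of 20 cohorts. In bulk tissue, fewer microglia and less RNA per microglial cell cannot be told apart.

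**Figure D2:**
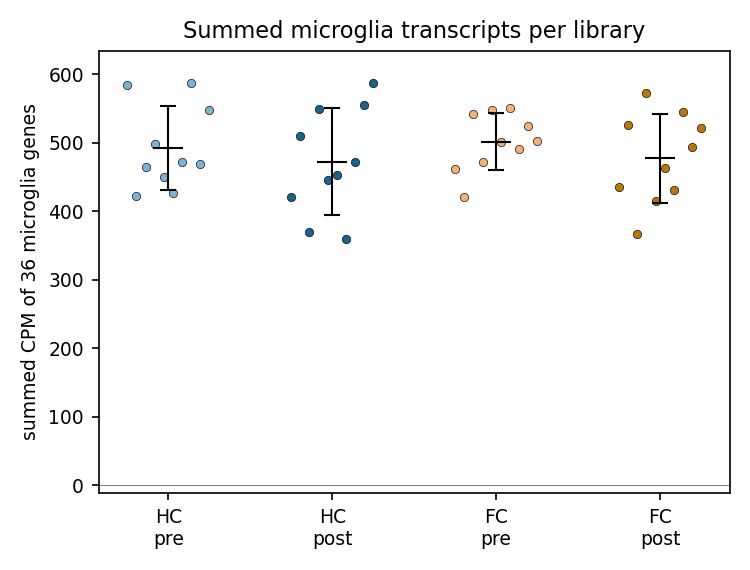
Summed level of the 36 microglia genes in CPM (y axis) in the 4 groups (x axis, with HC for hippocampus and FC for frontal cortex), with each point 1 library pooled from 6 mice, and the bar and line the mean and SD of 10 libraries. The sums lie between 359 and 587 CPM in every group, with no group apart from the rest.

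Single members varied between libraries far more than counting alone allows. The coefficient of variation exceeded that of counting in 144 of 144 member and group values. For the 11 members averaging at least 20 counts, the median ratio of observed to counting variation was 4.23 and 4.07 in hippocampus pre-KD and post-KD and 2.79 and 3.56 in frontal cortex pre-KD and post-KD. In 4735 genes of the same count range it was 3.83, 3.83, 3.11 and 3.22, above the members in 1 of the 4 groups and below them in the other 3. The summed level had a coefficient of variation of 12.4%, 16.4%, 8.37% and 13.7% in the same order of groups. Members that varied independently would give 15.2%, 16.1%, 11% and 12.6%.

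Whether colonization with post-KD rather than pre-KD stool changed microglia genes was asked first in the hippocampus. After Benjamini-Hochberg adjustment over all 17529 genes tested by edgeR, 0 of 35 members had p under 0.05 (0.0057% of all genes did, but 6.16% of 20964 genes with no filter on low counts, and then 0 of 36 members). At an unadjusted p under 0.05, the threshold the study used, 1 of 35 members passed, against 10.1% of all genes. That gene was *Irf8*, which fell by 2.63 on the log2 scale (SE 1.26, 95% interval -5.12 to -0.14, unadjusted p = 0.0387, edgeR adjusted p = 0.426), yet was lower post-KD in only 6 of 10 donors. With the donor as a block its difference was -1.48 (p = 0.472), without donors 9 and 10 it was -2.06 (p = 0.186), and without donor 10 alone, whose pre-KD library held the highest level, it was -1.79 (p = 0.22). Leaving out any of donors 1, 3, 4, 5, 8 or 10 took its p over 0.05. DESeq2 gave -2.69 (p = 0.013) and limma -0.99 (p = 0.125). By DESeq2 and by limma, 0 members passed after adjustment. On simulated counts edgeR put more than the nominal share of unchanged genes under the unadjusted threshold within either region, so these unadjusted p-values may be too small. *Cd68*, at -1.58 (p = 0.243) over all donors, was at -3.37 (p = 0.0437) without donors 9 and 10 and at -3.34 (p = 0.0358) without donor 10.

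The remaining hippocampal members did not pass the test, and their intervals were wide. In all, 14 of 35 lay above 0 and 21 below, with a median log2 difference of -0.15 against -0.00764 over all genes. Of all 17529 genes, 8638 lay above 0 and 8891 below. The abundant members bound the change best. *Csf1r* differed by 0.00355 (95% interval -0.67 to 0.67), *Ctss* by -0.14 (-0.77 to 0.49), *Mertk* by -0.36 (-1.05 to 0.33) and *Cx3cr1* by 0.52 (-0.20 to 1.23) on the log2 scale. A 2-fold change in either direction lies outside the interval for *Csf1r* and *Ctss*, and a 4-fold change for all 4. These intervals come from the same fit as the unadjusted p-values and may likewise be too narrow. The C1q genes differed by -0.09 (*C1qa*, -1.25 to 1.07), 0.59 (*C1qb*, -0.66 to 1.83) and -0.31 (*C1qc*, -1.75 to 1.13). *Trem2* differed by 1.24 (SE 1.09, interval -0.92 to 3.41, p = 0.258). Its post-KD library was the higher of the pair for 8 donors, and the other 2 donors had 0 counts in both libraries. Its adaptor *Tyrobp* differed by -0.15 (-1.91 to 1.60). By role, 6 of 6 phagocytosis and lysosome genes lay below 0 (median -0.55, 0 passing), 3 of 3 transcription factors below 0 (median -1.04, 1 passing), and 5 of 5 adhesion and leukocyte surface genes tested above 0 (median 0.83, 0 passing). *Cd14* had too few counts to be tested.

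In the frontal cortex no member passed after adjustment either (0 of 36, against 0.0056% of 17873 genes), and 2 of 36 had an unadjusted p under 0.05, against 9.68% of all genes. *Mertk* fell by 0.61 (SE 0.26, 95% interval -1.12 to -0.10, unadjusted p = 0.0203, edgeR adjusted p = 0.304) and was lower post-KD for 8 of 10 donors. *C1qb* fell by 0.98 (SE 0.44, interval -1.87 to -0.10, unadjusted p = 0.0299, edgeR adjusted p = 0.392) and was lower for 7 of 10 donors. The count was also 2 of 36 by DESeq2 (4.62% of all genes) and with the donor as a block (3.07%), 2 of 20 with edgeR's stricter filterByExpr filter (4.06%) and 4 of 36 by limma (5.07%), so whether the members' share lay below or above that of all genes depended on the fit. Without donors 9 and 10 neither gene passed, with *Mertk* at -0.51 (p = 0.0777) and *C1qb* at -0.95 (p = 0.0622). *Mertk* also lost its call without donor 1, 3 or 10, and *C1qb* without donor 6, 7 or 9. DESeq2 kept both unadjusted, with *Mertk* at -0.60 (p = 0.0268) and *C1qb* at -0.98 (p = 0.00568). With the donor as a block *Mertk* differed by -0.73 (p = 0.00705) and *C1qb* by -0.81 (p = 0.128). By limma on log2 CPM, *C1qb* had p = 0.0663. *Fcer1g*, at 0.70 (p = 0.257) and higher post-KD in 7 of 10 donors, passed unadjusted with the donor block (1.75, p = 0.0213) and by limma (1.36, p = 0.024), and limma also passed *Itgam* (-1.32, p = 0.0367) and *P2ry12* (p = 0.0406, higher post-KD).

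Of the other cortical members, *C1qa* differed by -0.16 (95% interval -0.84 to 0.51) and *C1qc* by 0.43 (-0.70 to 1.56). With the donor as a block these were -0.05 (p = 0.883) and -0.13 (p = 0.842), so the sign of *C1qc* depends on the pairing. *Cx3cr1* differed by 0.14 (-0.32 to 0.60), *Csf1r* by -0.13 (-0.59 to 0.34), *Ctss* by -0.14 (-0.62 to 0.35) and *Laptm5* by -0.19 (-1.06 to 0.68). For the first 3 of these a 2-fold change in either direction lies outside the interval, which may be too narrow, as in hippocampus. *P2ry12* differed by 0.84 (-0.39 to 2.06), its post-KD library being the higher of the pair for 8 of 10 donors. *Irf8* differed by 0.07 (-1.35 to 1.49), *Trem2* by 0.39 (SE 0.86, p = 0.65) and *Tyrobp* by 0.34 (-0.87 to 1.56). *Trem2* was lower post-KD in 7 of 10 donors here, and lay at -0.79 with the donor as a block and at -0.23 by limma. Over the 36 members 17 lay above 0 and 19 below, with a median of -0.10 against 0.0087 over all genes, and without donors 9 and 10 it was 19 above 0 and a median of 0.09 against 0.00557. Phagocytosis and lysosome genes lay below 0 in 6 of 6 cases here too (median -0.52, 1 passing, against 9.68% of all genes). Of all 17873 genes 8797 lay below 0, and both regions came from the same pooled mice. The 6 genes summed to 162 ± 27.7 CPM in the frontal cortex of pre-KD recipients against 125 ± 43.5 CPM in that of post-KD recipients. In their hippocampus the sums were 161 ± 31.6 against 122 ± 35.7 CPM (SD, 10 libraries each). *Mertk* alone went from a mean of 60.4 to 39.7 CPM in frontal cortex. *Mpeg1* went from 8.53 to 1.98 CPM in hippocampus, its highest pre-KD library being at 53.6 CPM. Adhesion and leukocyte surface genes lay below 0 in 5 of 6 cases here (median -0.64) and transcription factors above 0 in 3 of 3 (median 0.28). Sensing receptors lay above 0 in 5 of 6 cases (median 0.35) and TREM2-DAP12 and Fc receptor genes in 3 of 4 (median 0.37).

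**Figure D3:**
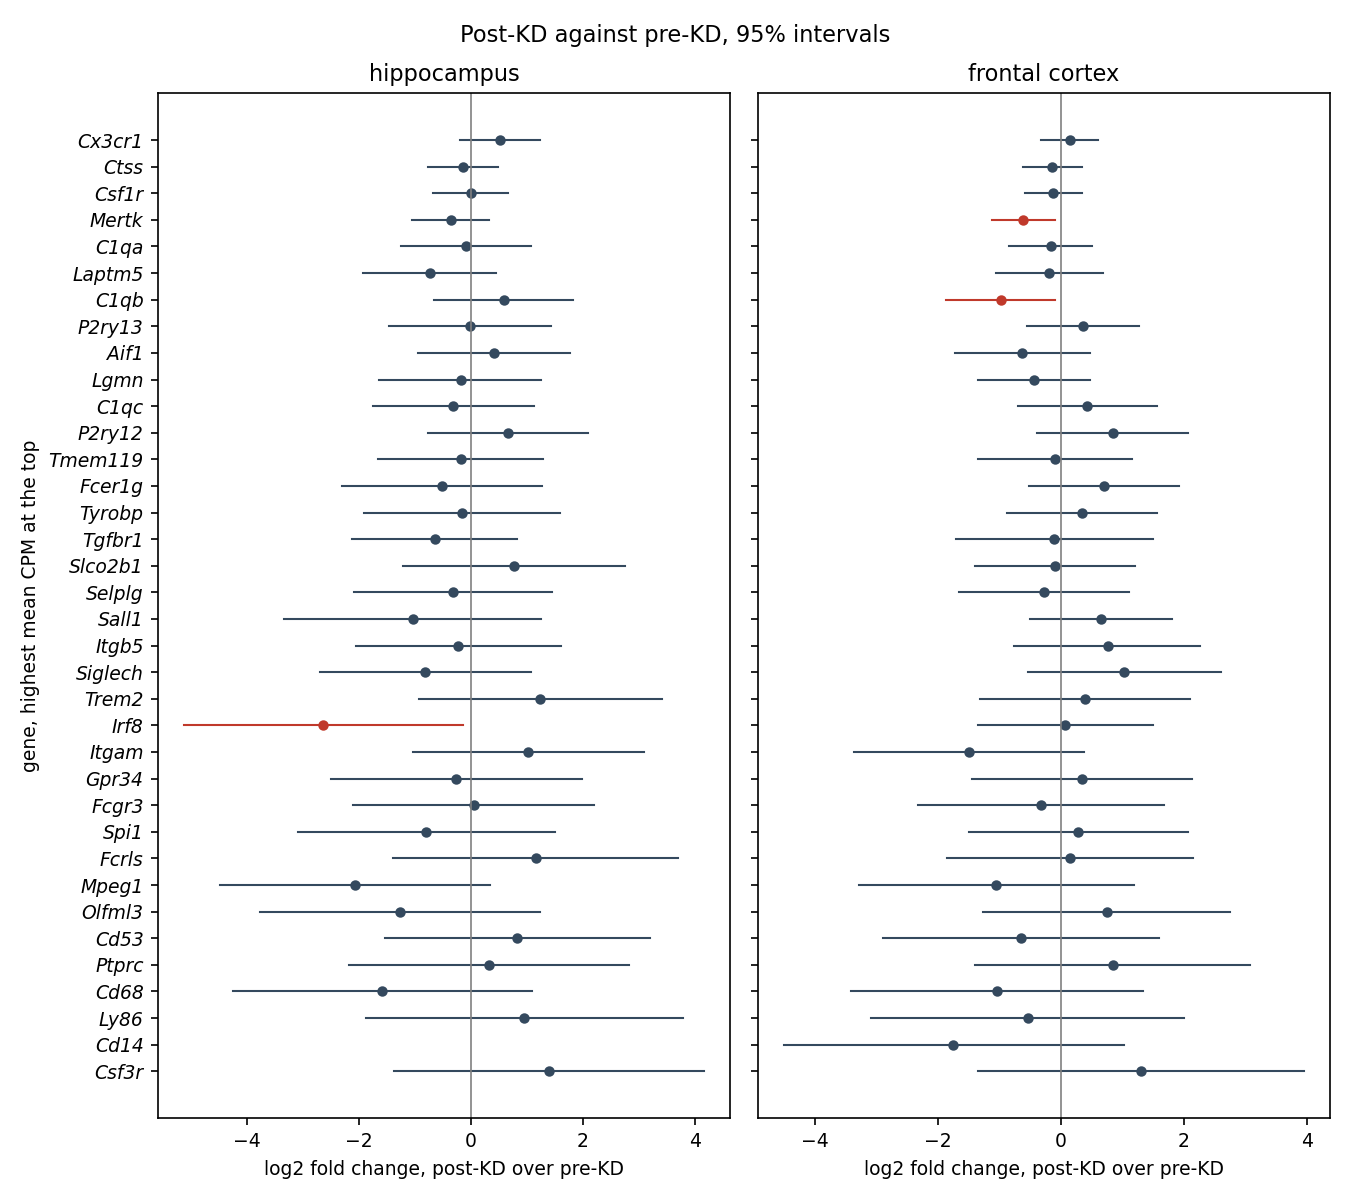
Log2 fold change of post-KD against pre-KD recipients (x axis) for each member tested, ordered by mean level (y axis), in hippocampus and frontal cortex, with lines giving the 95% interval of edgeR's fit over 20 libraries and red marking an unadjusted p under 0.05. Nearly all intervals include 0, with *Irf8* the exception in hippocampus and *Mertk* and *C1qb* those in frontal cortex.

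The region by condition term asked whether the post-KD effect differed between the regions. It passed for 0 of 36 members, unadjusted or adjusted, in edgeR's test, against 2.22% and 0.0154% of 19422 genes, with 18 members above 0, 18 below and a median of -0.05. The value closest to the threshold was that of *Trem2*, with a hippocampal effect higher by 3.75 on the log2 scale (SE 1.92, 95% interval -0.00196 to 7.51, p = 0.0501). That fit compares the regions within cohorts and sets each gene's spread to the trend of all genes, so the errors of very variable members may be too small. Without the cohort term, where values lie close to the difference of the within-region effects above, *Trem2* lay at 0.85 (p = 0.544), and without donor 8 in the cohort fit at 4.96 (p = 0.0171, edgeR adjusted p = 1). *C1qb* differed by 1.49 (SE 0.93, p = 0.109) and *Irf8* by -0.61 (SE 1.93, p = 0.751) in the cohort fit, and by 1.58 (p = 0.0394) and -2.70 (p = 0.0427, edgeR adjusted p = 0.514) without the cohort term, where 9.1% of all genes passed unadjusted. DESeq2 gave an unadjusted p under 0.05 for 4 of 36 members and 4.89% of all genes, the members being *Trem2* (3.95, p = 0.0118), *C1qb* (1.48, p = 0.0344), *Fcer1g* (-2.27, p = 0.0171) and *Siglech* (-2.39, p = 0.0196), and 0 after adjustment, while limma gave 0 on both counts. The directions that role groups took in the regions, named above, were therefore not shown to differ.

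Between the regions themselves, compared within the 20 cohorts, 0 of 36 members passed after adjustment by edgeR (2.85% of 19422 genes did) and 3 had an unadjusted p under 0.05 (10.9% of genes). All 3 were lower in hippocampus. *Sall1* fell by 1.69 on the log2 scale relative to frontal cortex (SE 0.76, 95% interval -3.19 to -0.20, p = 0.0267) and was lower in 16 of 20 cohorts. *Irf8* fell by 1.87 (SE 0.88, interval -3.59 to -0.14, p = 0.034) and was lower in 15 of 20 cohorts. *C1qa* fell by 0.76 (SE 0.37, interval -1.48 to -0.04, p = 0.0379) and was lower in 12 of 20 cohorts. In hippocampus against frontal cortex, mean *Irf8* was 7.78 against 8.1 CPM pre-KD and 1.19 against 8.52 CPM post-KD. Mean *Sall1* was 6.93 against 9.26 CPM pre-KD and 3.32 against 14.5 CPM post-KD, so both gaps were wider post-KD. The region by condition term in the cohort fit passed for neither. DESeq2 gave *Irf8* -1.93 (adjusted p = 0.0295) and *Sall1* -1.67 (adjusted p = 0.0371), 2 calls among 33 members with an adjusted p against 7.71% of 13397 genes, and limma gave 0. With 1 donor left out at a time, *Sall1* lost its call without donor 3 or 7, *Irf8* without donor 3, 4, 5, 8 or 9, and *C1qa* without donor 1, 6, 7 or 10, with -0.40 (p = 0.259) without donor 7. Without donors 9 and 10, *C1qa* alone kept an unadjusted p under 0.05 (-0.79, p = 0.0471). Without the cohort term, *Sall1* (-1.24, p = 0.0447) and *Tgfbr1* (1.17, p = 0.0332) were under 0.05.

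The members' regional differences have to be read against a shift of all genes. In this fit 11 members lay above 0 and 25 below with a median of -0.27, while the median of all genes was -0.17. Without the cohort term the medians were -0.01 for members and -0.02 for all genes, and 17 of 36 members lay above 0. The abundant members differed little, by -0.02 for *Ctss* (95% interval -0.46 to 0.42), -0.08 for *Mertk* (-0.53 to 0.37), -0.20 for *Csf1r* (-0.64 to 0.24) and -0.32 for *Cx3cr1* (-0.77 to 0.13). A 2-fold difference between regions lies outside each of these intervals. *Lgmn* lay at -0.54 (-1.53 to 0.45) and was lower in hippocampus in 14 of 20 cohorts, and *P2ry12* at 0.33 (-0.82 to 1.48) was higher in 14 of 20. Each region has its own count table, so region and any difference in how the tables were made cannot be told apart.

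**Figure D4:**
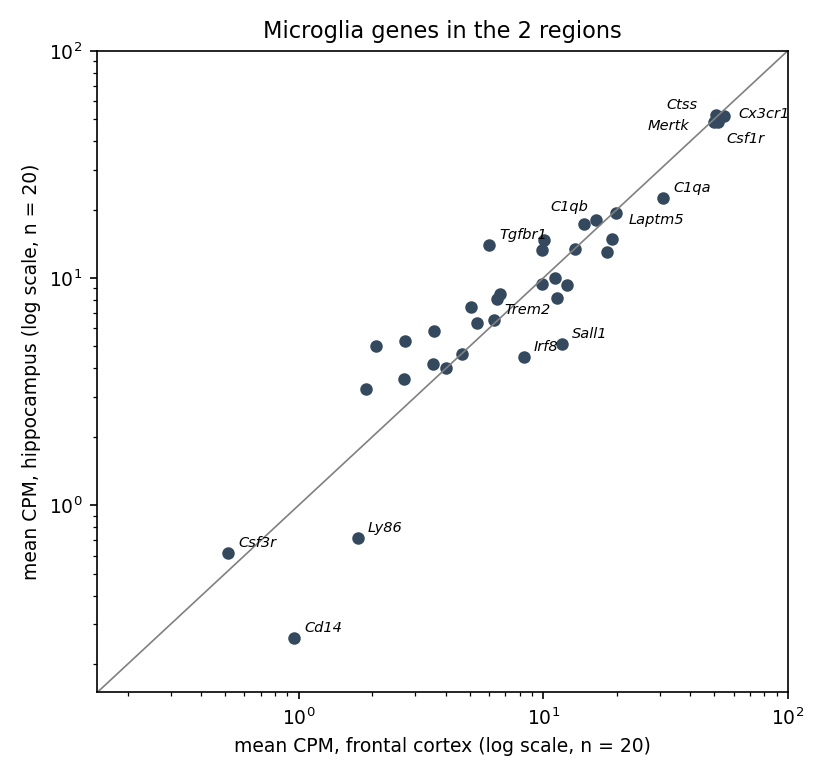
Mean level of each of the 36 members in hippocampus (y axis) against frontal cortex (x axis), in CPM on log axes, each point a gene averaged over 20 libraries per region, with the line of equality. The abundant genes lie on the line, and *Sall1*, *Irf8* and *C1qa* lie below it.

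Genes that act on microglia or mark their other states gave a frame for these values. Of 12 ligands and brakes of microglia, 11 were tested, and 0 passed in hippocampus and 1 in frontal cortex for post-KD against pre-KD at the unadjusted threshold, which 10.1% and 9.68% of all genes passed. That gene was *Cx3cl1*, the neuronal ligand of CX3CR1, at 276 ± 27.1 CPM post-KD and 234 ± 38.9 CPM pre-KD (log2 0.23, SE 0.12, p = 0.0495). Between regions 3 of 11 passed unadjusted, against 10.9% of all genes. *Tgfb2*, a TGF-β ligand, was higher in hippocampus (log2 2.07, SE 0.23, edgeR adjusted p = 7.91e-17), and *Il34*, the neuronal ligand of CSF1R, was lower there (log2 -0.59, SE 0.24, p = 0.0147, not passing after adjustment).

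Of 15 genes of the disease-associated microglial state, 12 were tested and 1 passed unadjusted in each region (10.1% of all genes in hippocampus and 9.68% in frontal cortex did), the lysosomal protease *Ctsb*, which is made by many brain cells. Without passing after adjustment, it went from 134 ± 38.1 to 190 ± 24.4 CPM in frontal cortex (log2 0.50, SE 0.15, p = 0.000994, edgeR adjusted p = 0.122) and from 138 ± 26.6 to 186 ± 48.2 CPM in hippocampus (log2 0.43, SE 0.18, p = 0.021, edgeR adjusted p = 0.28). *Lpl*, lipoprotein lipase, was the member of that list to pass after adjustment between regions, higher in hippocampus (log2 0.84, SE 0.21, edgeR adjusted p = 0.00452). The defining genes *Cst7*, *Itgax* and *Clec7a* were each at 0 in every library of 1 or more groups.

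Inflammatory cytokine transcripts were largely under the detection limit. Of 14 genes, *Tnf*, *Il6* and *Ccl4* were at 0 in every library of all 4 groups, and 5 to 9 genes were at 0 throughout a group. Only 4 could be tested within each region, where 10.1% of all genes in hippocampus and 9.68% in frontal cortex passed unadjusted. In hippocampus 1 passed, *Cxcl10* (2.46 ± 7.79 CPM post-KD against 0.124 ± 0.393 CPM, with counts in 1 of 10 libraries of each group, p = 0.0225), and in frontal cortex 0 did. Of 8 complement genes beyond C1q, 6 were tested in hippocampus and 5 in frontal cortex, and 0 passed in either by edgeR at the unadjusted threshold.

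Other myeloid and blood cells were checked because several members are shared with them. For post-KD against pre-KD, 10.1% of all genes in hippocampus and 9.68% in frontal cortex passed unadjusted. Between regions 10.9% did, and for the region by condition term 2.22%. The 9 border macrophage genes summed to a mean of 20.4 to 26.4 CPM in the 4 groups (lowest library 0.573, highest 57.3), with 0 of 9 passing unadjusted in any comparison. The 13 blood leukocyte genes summed to a mean of 2.79 to 9.52 CPM (0.688 to 15.3), with 4 to 7 of them at 0 throughout a group and *Retnlg* at 0 in every hippocampal library and every frontal cortex library. In hippocampus 1 of 2 tested passed, *S100a8*, which had a count in 1 of 10 pre-KD libraries (0.621 ± 1.96 CPM, SD) and in 0 of 10 post-KD libraries, and in frontal cortex 1 of 4, *Cd3g* (0.0528 ± 0.167 and 0.909 ± 2.49 CPM pre-KD and post-KD). Of 4 erythroid genes tested in frontal cortex 2 passed unadjusted, *Hba-a1* by 0.49 (p = 0.00163) and *Hbb-bs* by 0.41 (p = 0.00691) on the log2 scale, while *Hbb-bt* (-0.00926, p = 0.962) and *Alas2* (-0.07, p = 0.924) did not. Between regions 4 of 4 erythroid genes were lower in hippocampus, 3 passing unadjusted, and 5 of 5 blood leukocyte genes tested, 1 passing. Of all 19422 genes, 12170 were lower there. The part of blood in the frontal cortex differences, or in the members' differences between regions, was not tested.

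Markers of the other brain cells were tested for post-KD against pre-KD in the same way, with 10.1% of all genes in hippocampus and 9.68% in frontal cortex passing unadjusted. Neurons gave 1 of 6 in hippocampus (*Nefl*, -0.29, p = 0.0432) and 0 of 6 in frontal cortex, oligodendrocytes 1 of 6 (*Mog*, 0.90, p = 0.041) and 0 of 6, and astrocytes and endothelium 0 of 6 in both regions at the unadjusted threshold. Choroid plexus gave 0 of 5 in both, hippocampal neurons 2 of 7 (*Prox1*, -0.57, p = 0.0256, and *Wfs1*, 0.79, p = 0.0371) and 0 of 7, and striatum 1 of 5 in hippocampus (*Ppp1r1b*, -0.64, p = 0.0322). In the region by condition term 5 of 5 striatal genes tested lay below 0 and 3 passed unadjusted, led by *Ppp1r1b* (-0.79, SE 0.23, unadjusted p = 0.000759, edgeR adjusted p = 1). For that term 10463 of all 19422 genes lay below 0 and 2.22% passed unadjusted. The part of striatal tissue in any member's difference was not tested. Between regions 3 of 5 choroid plexus genes passed after adjustment, among them *Folr1* (4.72, SE 0.92, edgeR adjusted p = 4.05e-05). Endothelial genes lay lower in hippocampus in 6 of 6 cases, 3 passing unadjusted and 0 adjusted. Of all 19422 genes, 12170 lay lower in hippocampus in this fit, 10.9% passed unadjusted and 2.85% after adjustment.

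Members with enough counts were compared for shared variation across libraries. After removing each group's mean, the 55 pairs among the 11 members averaging at least 20 counts had a median Pearson r of 0.0685 in hippocampus and 0.0806 in frontal cortex, across 20 libraries in each. All pairs of 8157 genes of at least that mean count had medians of 0.0139 and 0.00459. In hippocampus the highest values were those of *Cx3cr1* with *Mertk* (0.689), *P2ry13* with *C1qc* (0.517) and *Mertk* with *Laptm5* (0.508), and the lowest that of *Lgmn* with *Laptm5* (-0.53). Both *Cx3cr1* and *Mertk* had a lowest level of 0.819 CPM in hippocampus post-KD, against medians of 69.4 and 44.3 CPM. The part of such low values in their r was not tested, and in frontal cortex that r was -0.0313. In frontal cortex the highest were *C1qc* with *Aif1* (0.673) and *C1qa* with *Aif1* (0.459), and the lowest *C1qa* with *Lgmn* (-0.46). These libraries share their depth and composition, and the values describe them only.

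The C1q subunits, whose proteins assemble in fixed proportion, gave low or negative values. Their 3 pairwise values in hippocampus were -0.293, -0.423 and -0.139, and in frontal cortex 0.119, 0.15 and 0.0284. Across the 20 cohorts, a member's level in hippocampus was little related to its level in the frontal cortex of the same pooled mice, with a median r of 0.0437 over the 11 members (lowest -0.137, highest 0.318 for *Csf1r*) and 0.0145 over all genes of that abundance.

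**Figure D5:**
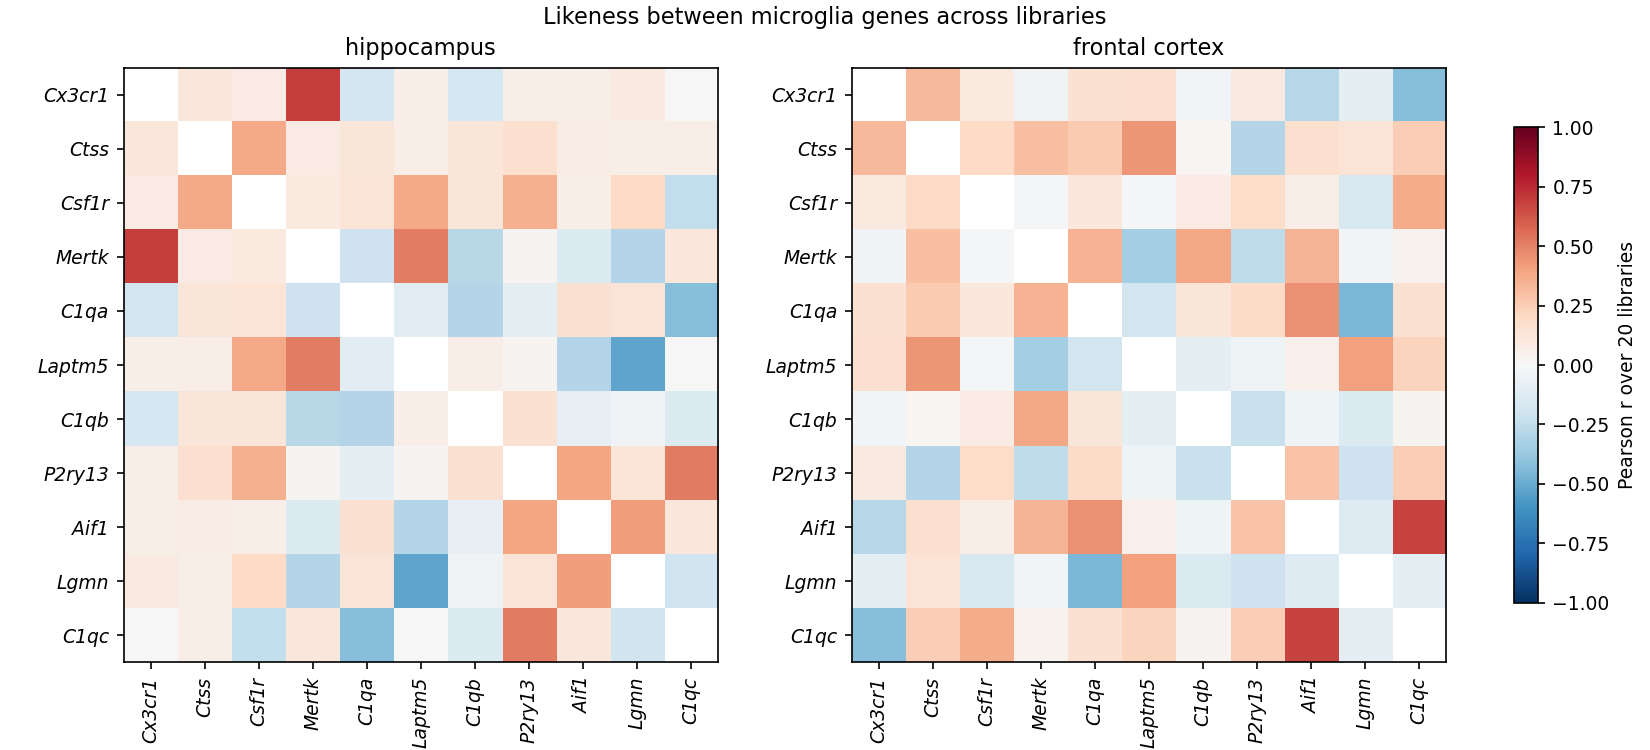
Pearson r between the 11 most counted members across 20 libraries per region (color scale, -1 to 1), on log2 CPM with each group's mean removed, in hippocampus and frontal cortex. Most cells are pale, and the darkest differ between the regions, *Cx3cr1* with *Mertk* at 0.689 in hippocampus and *C1qc* with *Aif1* at 0.673 in frontal cortex. Both *Cx3cr1* and *Mertk* reached down to 0.819 CPM in hippocampus post-KD, and the part of such low values in their r was not tested.

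Outside the list, the gene whose level was most like the mean log2 CPM of the members was *Apoe*, the lipid carrier made by astrocytes and by activated microglia, with r of 0.731 in hippocampus and 0.673 in frontal cortex (mean 0.702) at a mean level of 1320 CPM. It was followed by *Zrsr1* (mean r 0.693), *Letmd1* (0.669), *Nfix* (0.661), *Gm43018* (0.656), *Tmppe* (0.654), *Pam16* (0.637), *Selenow* (0.635), *Leo1* (0.629) and *Csnk1a1* (0.623), each over 20 libraries per region. These are the highest of many genes compared and are given as a description.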

How the data were processed

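Total RNA of 40 pooled libraries was analysed from 2 tables of raw gene counts, deposited by the authors, 1 per region. Per the study's methods, reads were trimmed, aligned to mm10 with STAR 2.5.2a and counted with HTSeq 0.6.0; the annotation release and strand setting are not given in the sources used here. Each table holds 47643 genes, of which 47224 matched GENCODE M21 by ID. Totals were 1140756 to 2095352 counts per library, and 0 values were imputed or dropped. Levels are CPM (counts per 1000000) with TMM scaling over 40 libraries. The test was edgeR's (version 4.0.16, R 4.3.3) quasi-likelihood F-test on genes whose counts summed to at least 10, with Benjamini-Hochberg adjustment over all of them. Post-KD was compared with pre-KD within each region, and regions within cohorts. In the cohort and donor-block fits edgeR pooled the spread of all genes to its trend, so standard errors and p-values of very variable genes may be too small there. Standard errors were derived from F. Log2 CPM for likeness used a prior count of 2. Alternatives were DESeq2 1.42.0, RLE scaling, other filters, a Y-linked covariate, the donor block, each donor left out and, chosen after seeing the data, limma 3.58.1 and no donors 9 and 10. Fits were tested on simulated data, where unchanged genes passed the unadjusted threshold more often than nominal within regions and less often in the cohort fits.

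Donor numbers pair pre-KD and post-KD cohorts by design, since both came from 1 stool donor. The deviations of same-donor libraries from their group means correlated between -0.0298 and 0.0275 in hippocampus and between -0.0467 and 0.0322 in frontal cortex.

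The members and lists were chosen with earlier results of these data known. Described by library were the 6 members of highest mean level, every member with an unadjusted p under 0.05 for post-KD against pre-KD, *C1qa*, *C1qb*, *C1qc*, *Trem2* and *Tyrobp*. The rule also took members passing the adjusted threshold between regions, of which there were 0. Values of other members, including regional calls and members called only by an alternative, were added after they were seen. From each other list the rule took the 2 genes of lowest p, given here where they passed, and 1 result is not reported here. P-values measure the spread between pooled libraries.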

Additional observations from a re-analysis of the deposited data

Results flagged for a closer look

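In 7 of the 48 gene and group values checked, 1 library stood apart from the other 9 of its group by Dixon's criterion, which chance alone gives in about 1 in 20 groups. *Cx3cr1* reached 86.5 CPM in the frontal cortex pre-KD library of donor 3, against 59.9 in the next. *Laptm5* reached 68 CPM in the hippocampus pre-KD library of donor 5, against 37.3 in the next. *C1qb* reached 58.9 CPM in the hippocampus post-KD library of donor 7 (next 30.5) and 52.1 CPM in the frontal cortex pre-KD library of donor 6 (next 31.1). *Irf8* reached 36.9 CPM in the hippocampus pre-KD library of donor 10 (next 14.3) and 26.4 CPM in the frontal cortex pre-KD library of donor 5 (next 11.6). *Trem2* reached 31.2 CPM in the frontal cortex post-KD library of donor 3, against 14.2 in the next. The summed level of the 36 genes had no such library in any of the 4 groups.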

How the results depend on the processing

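After adjustment no setting gave a member below 0.05 for post-KD against pre-KD in either region or for the difference between regions, and DESeq2 alone gave any between regions, with 2 (0 by edgeR). At the unadjusted threshold the count in hippocampus (1) became 0 with the replicate block by donor, filterByExpr, the Y-linked covariate and limma (1.99%, 2.32%, 8.95% and 3.74% of all genes against 10.1%), the count in frontal cortex (2) became 0 without donors 9 and 10 and 4 with limma (5.07% of all genes against 9.68%), and the count between regions (3) became 1 without donors 9 and 10. The count for the difference (0) became 4 with DESeq2, 1 without donors 9 and 10 and 2 with no replicate block, while the share of all genes went from 2.22% to 4.89%, 2.35% and 9.1%. With each donor left out these counts ran from 0 to 1, 1 to 2, 1 to 3 and 0 to 1. The count between regions was 4 with DESeq2 (13.7% of all genes) and 2 with filterByExpr (13%) or no replicate block (17.9%). With the donor block the frontal cortex count stayed at 2 with *Fcer1g* in place of *C1qb*. The cause of these changes was not tested, except that filterByExpr left *Irf8* untested in hippocampus.

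Some directions turned. In hippocampus *Csf1r* became -0.01 (donor block), -0.01 (Y-linked covariate), -0.05 (without donors 9 and 10) and -0.05 (limma), and *C1qa* 8.5e-06 without those donors. In frontal cortex *Irf8* became -0.42 (block), -0.05 (without donors 9 and 10) and -0.24 (limma), *C1qc* -0.13 (block), *Trem2* -0.79 (block) and -0.23 (limma), and *Tyrobp* -0.04 (Y-linked covariate) and -0.36 (without donors 9 and 10). Between regions *Ctss* became 0.01 (DESeq2), 0.00998 (RLE) and 0.03 (no replicate block), *Laptm5* 0.01 (without donors 9 and 10), and *C1qb* 0.17 and *C1qc* -0.00477 (no replicate block). For the difference *Mertk* became -0.00723 (without donors 9 and 10) and *C1qa* 0.07 (no replicate block). The cause was not tested.

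Leaving out 1 donor at a time turned the sign of *Ctss* (-0.28 to 0.05), *Csf1r* (-0.15 to 0.15), *C1qa* (-0.41 to 0.21) and *Tyrobp* (-0.72 to 0.25) in hippocampus, and of *Ctss* (-0.28 to 0.00939), *Irf8* (-0.24 to 0.47) and *Trem2* (-0.28 to 0.75) in frontal cortex. Between regions it did so for *Ctss* (-0.13 to 0.07), *Mertk* (-0.21 to 0.12), *C1qb* (-0.17 to 0.16), *C1qc* (-0.04 to 0.35) and *Trem2* (-0.98 to 0.31), and for the difference for *Ctss* (-0.06 to 0.41), *Csf1r* (-0.21 to 0.34), *Irf8* (-1.48 to 0.20) and *C1qc* (-0.82 to 0.18). Under the other alternatives 301 values of named members kept their direction and side of the threshold, 21 turned, 12 kept their direction but no longer passed, and 4 newly passed. Only 11 of 36 members averaged at least 20 counts per library.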
